A study of Gallus gallus and Dromaius novaehollandiae with 40 samples.

Results

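MAB21L1 and MAB21L2 are paralogous genes of the Mab-21 family. Both have a row in the count tables of early chick (Gallus gallus) and emu (Dromaius novaehollandiae) tissue, so the rule, which takes these rows by symbol in all tissues of both species, found 2 genes among 12338 listed symbols. Both also passed the filter on low counts in each species. They were chosen by their measured values: their high level in chick splanchnopleure against lateral plate was already known. Their levels and fold changes are therefore given as a description, with no p-value.

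The early libraries come from tissue at the level of the forelimb, and the study compares them between a bird with ordinary wings and a bird whose wings stay small. The chick gave 3 libraries each of undifferentiated lateral plate mesoderm (stage HH10 in the Hamburger and Hamilton series), somatopleure (HH13) and splanchnopleure (HH13). The emu gave 3, 3 and 2 libraries of the same tissues. The somatopleure is the outer layer that forms when the lateral plate splits, and the splanchnopleure is the inner layer next to the gut. In the emu, lateral plate 1 is labelled HH13 and somatopleure 13 is labelled HH10, against the stage of their groups, and 1 splanchnopleure library is labelled as a pool. No treatment or genetic change was applied. Apart from those emu labels tissue and stage change together, so a difference from the lateral plate cannot be told apart from a difference in stage.

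The family is named after mab-21 of Caenorhabditis elegans, a gene needed for the identity of sensory rays in the male tail. In the mouse, Mab21l1 and Mab21l2 act in eye development, and loss of Mab21l2 also disturbs the ventral body wall, the liver and the proepicardium, the cell cluster that covers the heart. In Xenopus embryos MAB21L2 was found to bind SMAD1 and to counteract BMP signalling. In mammals each gene lies within a large host gene, MAB21L1 in NBEA and MAB21L2 in LRBA.

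MAB21L1 was close to the detection limit in chick lateral plate, with 3 counts in library 30, 2 in library 31 and none in library 32. As CPM, library-scaled counts after TMM, these are 0.363, 0.297 and 0. The mean was 0.220 ± 0.193 CPM (SD, n = 3), near the level that 3 counts in a library give, 0.363 CPM in library 30. Chick somatopleure had 8.61 CPM in library 15, 1.02 in library 60 and 8.86 in library 63. Chick splanchnopleure had 23.3 CPM in library 50, 22.5 in library 61 and 72.9 in library 64. The 3 tissues did not overlap, and their order was lateral plate, somatopleure, splanchnopleure. In a bulk library a smaller share of expressing cells and less RNA per cell cannot be told apart.

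MAB21L2 in the chick had the same lowest tissue but a less even splanchnopleure. Its lateral plate values were 0.605, 1.93 and 0.200 CPM in libraries 30, 31 and 32, from 5, 13 and 1 counts. Somatopleure libraries 15, 60 and 63 had 17.4, 5.73 and 9.85 CPM. Splanchnopleure libraries 50, 61 and 64 had 15.5, 10.4 and 90.9 CPM, so that library 64 held 768 of the 939 counts of the tissue. Somatopleure and splanchnopleure overlapped: library 15 of the somatopleure exceeded 2 of the 3 splanchnopleure libraries. The means of these layers were 11.0 ± 5.89 and 38.9 ± 45.1 CPM (SD, n = 3 each), and library 64 largely set both the mean and the spread of splanchnopleure.

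In the emu MAB21L1 had 0.229, 3.32 and 4.41 CPM in lateral plate libraries 1, 23 and 8. Somatopleure libraries 13, 53 and 5 had 11.7, 4.23 and 11.3 CPM. Splanchnopleure library 6 had 93.8 CPM and the pool 44.5 CPM. Splanchnopleure stood above all other emu libraries, whereas somatopleure 53 lay below lateral plate 8, so these tissues overlapped. The lowest value came from lateral plate 1, the library with the unlike stage label, at 2 counts against 27 and 36 in the others.

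MAB21L2 in the emu was at 2.86, 22.9 and 24.6 CPM in lateral plate 1, 23 and 8. Somatopleure 13, 53 and 5 had 23.9, 28.1 and 63.5 CPM. Splanchnopleure 6 and the pool had 210 and 127 CPM. As with MAB21L1, splanchnopleure was above every other library, lateral plate and somatopleure overlapped, and lateral plate 1 was lowest. Both genes thus ran in the same order of tissue means in both species.

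**Figure D1:**
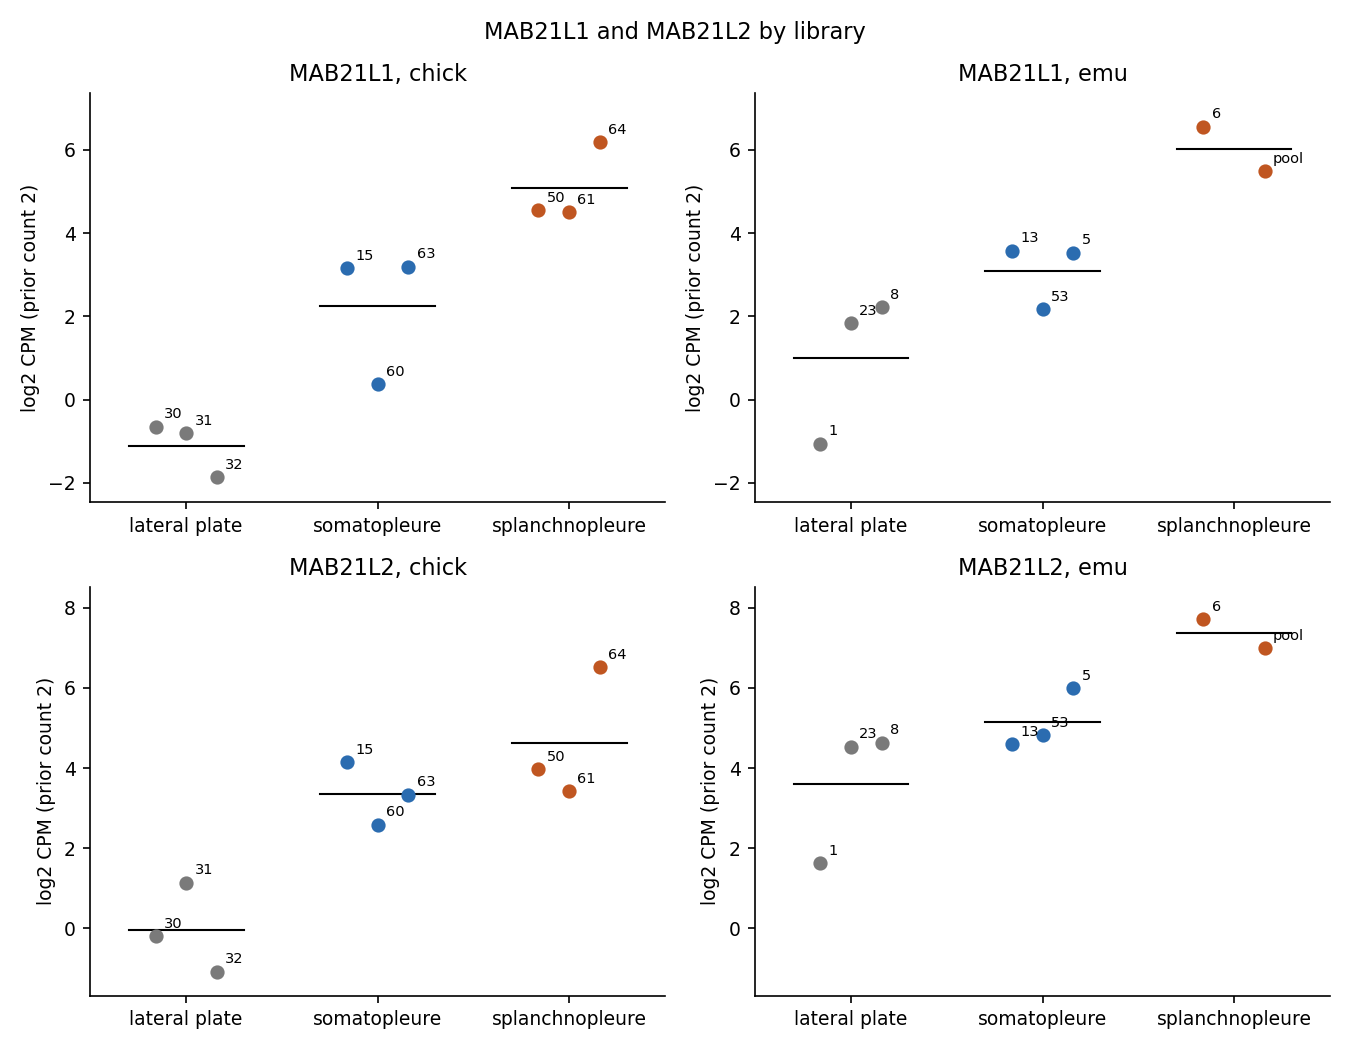
Log2 CPM (prior count 2) of MAB21L1 (top) and MAB21L2 (bottom) in each chick (left) and emu (right) library; points are libraries with their numbers, lines are means of the points. Splanchnopleure lies highest for MAB21L1 in both species and for MAB21L2 in the emu, while MAB21L2 in chick splanchnopleure 50 and 61, at 15.5 and 10.4 CPM, sits among the somatopleure libraries.

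The listed somatopleure and limb field genes were, as a sum, higher in somatopleure than in splanchnopleure in both species, with fewer calls in the emu. Totals ran from 5061393 to 8348865 counts in the chick and from 7350786 to 8601471 in the emu, and the biological coefficient of variation was 0.168 and 0.221. On the first principal component emu splanchnopleure 6 and the pool, at 73.1 and 55.0, stood apart from the other 6 emu libraries, at -38.8 to -11.2. The 12 listed somatopleure and limb field genes summed to 1105 to 1320 CPM in chick somatopleure against 100.1 to 163 CPM in chick splanchnopleure. In the emu the same sum was 235 to 519 and 44.2 to 150 CPM. Lateral plate had 255 to 374 CPM in the chick and 172 to 215 CPM in the emu. Between the layers edgeR called (adjusted p under 0.05) 9 of the 12 higher in chick somatopleure and 4 in that of the emu. Of all genes, 19.1 and 13.4 percent were called there in either direction. Against lateral plate 7 rose in chick and 0 in emu somatopleure, beside 9.8 and 0 percent of all genes called. Markers of other cells were present too, and several moved with the tissues.

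The summed level of 13 endothelial genes was 943 to 1193, 264 to 426 and 1038 to 1533 CPM in chick lateral plate, somatopleure and splanchnopleure, and 514 to 658, 276 to 630 and 1099 to 2204 CPM in the emu. Of the 13 endothelial genes, 10 rose (edgeR adjusted p under 0.05) in emu splanchnopleure against lateral plate, beside 11.4 percent of all genes, though 0 without splanchnopleure 6, 2 without lateral plate 1 and 3 without lateral plate 23. In the chick 1 rose, beside 9.07 percent of all genes, with 2 called without splanchnopleure 61 and 0 without lateral plate 30 or 32 or splanchnopleure 50 or 64. Between the layers 10 of 13 were lower in chick somatopleure and 11 in that of the emu, beside 19.1 and 13.4 percent of all genes called in either direction. Chick somatopleure had 10 of 13 lower than lateral plate, beside 9.8 percent called in either direction. Without 1 library these chick counts were 10 to 13 and 10 to 12. The emu count between the layers lost most of its genes without splanchnopleure 6, a fit that leaves 1 splanchnopleure library. The sum of 7 endoderm genes was 279 to 292, 154 to 228 and 263 to 416 CPM in the chick and 329 to 466, 306 to 429 and 364 to 373 CPM in the emu. Much of that sum was EPCAM, an epithelial adhesion gene, at means of 163 to 182 CPM in the chick tissues and 219 to 335 in those of the emu. Of the 7, 5 were lower in somatopleure than in splanchnopleure in each species (median log2 fold changes -2.45 in the chick and -2.09 in the emu), beside 19.1 and 13.4 percent of all genes called in either direction. Chick somatopleure had 4 of 7 lower than lateral plate (median -2.83), beside 9.8 percent of all genes called in either direction. Emu splanchnopleure had 2 of 7 higher than lateral plate (median 1.17), beside 11.4 percent of all genes called higher. This count was 0 without splanchnopleure 6 and 1 without lateral plate 1, lateral plate 8 or the pool.

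Surface ectoderm genes (6) summed to 24.0, 131 and 31.6 CPM in chick splanchnopleure 50, 61 and 64, beside 108 to 137 in lateral plate and 109 to 235 in somatopleure. Library 61 thus stood with the other tissues. With it, edgeR called none of the 6 in either chick contrast with splanchnopleure. Of all genes, 16.9 percent were called there against lateral plate and 19.1 percent between the layers. At an unadjusted p under 0.05 were 1 of the 6 against lateral plate and 4 against somatopleure, beside 3172 and 3277 of all 10071 genes. DESeq2 called 0 and 1. Without library 61 edgeR called 4 and 6, and the share of all genes in those fits is not given here. In the emu 4 of 6 fell in splanchnopleure against lateral plate, beside 9.21 percent of all genes, and 1 did without splanchnopleure 6. Somite genes (6) summed to 48.5 to 97.3 CPM in chick lateral plate, 6.28 to 10.4 in somatopleure and 21.4 to 31.1 in splanchnopleure, and to 6.97 to 21.4 CPM in any emu library. Heart muscle genes (9) summed to 106 to 162 CPM in chick and 79.7 to 80.8 CPM in emu splanchnopleure, beside 101 to 118 and 48.9 to 51.3 CPM in lateral plate. In this contrast edgeR called chick genes both ways: of 6 tested, MYL4 rose and TNNT2 and TNNC1 fell, beside 9.07 and 7.78 percent of all genes. In the emu TNNT2 and MYOCD rose, 2 of 7 tested, and 0 fell, beside 11.4 and 9.21 percent of all genes. Eye field genes (8), markers of the tissue where both genes are best known, summed to at most 12.9 CPM in any chick and 12.2 CPM in any emu library, with SIX6 at 0 throughout. No endothelial, endoderm, surface ectoderm, somite or heart muscle gene was at 0 in all libraries of a species. The part of these cells in the levels of MAB21L1 and MAB21L2 was not tested.

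Fold changes were fitted over all genes of a table with edgeR and are given on the log2 scale with their standard error (SE). Against lateral plate, chick splanchnopleure was higher by 7.23 ± 0.98 for MAB21L1 and by 5.35 ± 0.99 for MAB21L2. These were ranks 2 and 7 from the top among 10071 genes tested. In both genes all 3 splanchnopleure libraries lay above all 3 lateral plate libraries, as they did for 20.4 percent of all genes; this contrast chose the members, and nothing is read from the count. The MAB21L1 value rests on a lateral plate total of 5 counts, which makes it imprecise. Without splanchnopleure 64 the values were 6.43 ± 0.89 and 3.75 ± 0.65.

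Against lateral plate, chick somatopleure was higher by 4.55 ± 1.09 for MAB21L1 and 3.51 ± 1.01 for MAB21L2, ranks 12 and 24 of 10071. Neither gene overlapped between these tissues, beside 13.9 percent of all genes with higher somatopleure libraries. Chick somatopleure was below splanchnopleure by 2.68 ± 0.64 (MAB21L1) on the log2 scale, without overlap, beside 19.4 percent of all genes that were lower without overlap. For MAB21L2 the somatopleure minus splanchnopleure value was -1.83 ± 0.73, with overlap, and it shrank to -0.22 ± 0.53 without splanchnopleure 64. The size of this difference for MAB21L2 in the chick therefore rests largely on that library, while its sign stayed the same without it. The lateral plate contrasts share their lateral plate libraries, so they are not independent of each other.

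In the emu, splanchnopleure was above lateral plate by 4.71 ± 0.75 for MAB21L1 and 3.33 ± 0.70 for MAB21L2, ranks 32 and 105 of 10640 genes. Both genes were free of overlap there, beside 28.2 percent of all genes. Without lateral plate 1 and somatopleure 13, the libraries with unlike stage labels, the values were 4.16 ± 0.58 and 2.83 ± 0.42. Somatopleure minus splanchnopleure was -2.93 ± 0.68 for MAB21L1 and -2.13 ± 0.67 for MAB21L2, again without overlap in either gene, beside 21.9 percent of all genes. Without splanchnopleure 6 these were -2.29 ± 0.85 and -1.72 ± 0.83.

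Emu somatopleure minus lateral plate was 1.78 ± 0.70 for MAB21L1 and 1.20 ± 0.64 for MAB21L2. Both genes overlapped between these tissues, beside 7.94 percent of all genes that were higher in somatopleure without overlap. Without emu lateral plate 1 and somatopleure 13 they were 1.01 ± 0.58 and 0.95 ± 0.41. In this contrast edgeR called no gene of 10640 (0 percent), against 1107 genes at an unadjusted p under 0.05 and 140 called by DESeq2.

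**Figure D2:**
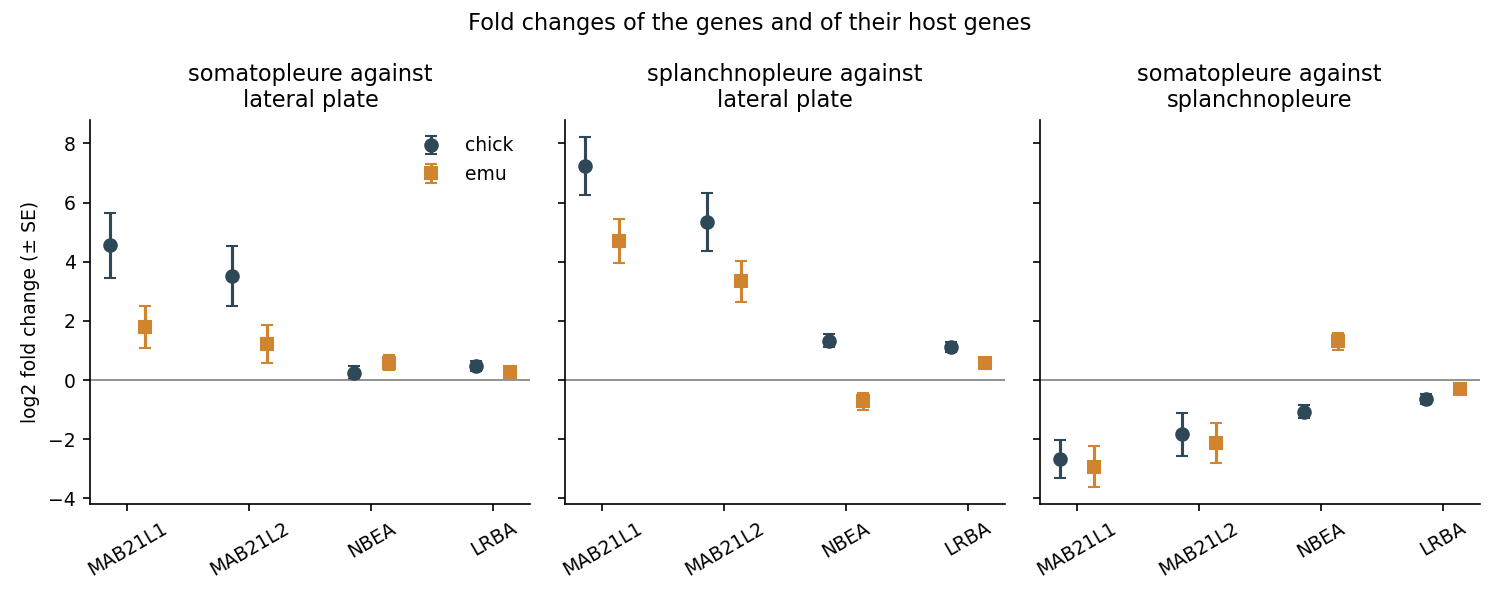
Log2 fold changes (points) with their SE (bars) of MAB21L1, MAB21L2 and the host genes NBEA and LRBA in the 3 tissue contrasts, chick as circles and emu as squares. MAB21L1 and MAB21L2 are above 0 in both contrasts with lateral plate and below 0 in the third in both species, whereas NBEA in the emu lies on the other side of 0 from the chick in both contrasts with splanchnopleure, at -0.73 and 1.30.

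The chick and emu contrasts were compared in a joint fit over 9736 genes, as the chick log2 fold change minus that of the emu. The difference for splanchnopleure minus lateral plate was 2.54 ± 1.57 for MAB21L1 and 2.04 ± 1.45 for MAB21L2. For somatopleure minus lateral plate it was 2.77 ± 1.56 and 2.31 ± 1.42. Each of these was less than 1.8 times its SE, and the MAB21L2 splanchnopleure value was 0.43 ± 1.16 without chick splanchnopleure 64. Between the layers the difference was small beside its error, 0.23 ± 1.02 for MAB21L1 and 0.28 ± 1.11 for MAB21L2. The chick values against lateral plate start from a level at or near the detection limit, 5 and 19 counts in all, whereas the emu lateral plate held 65 and 412.

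The balance between the paralogs was compared within each library, where depth and scaling cancel. It is given as the share of MAB21L1 in the counts of both genes, with an exact 95% Clopper-Pearson interval that covers counting error only. In chick splanchnopleure MAB21L1 made up 60.1% (53.8 to 66.1) in library 50, 68.4% (61.7 to 74.5) in library 61 and 44.5% (41.9 to 47.2) in library 64. In chick somatopleure it was 33.2% (26.8 to 40.0) in library 15, 15.1% (6.75 to 27.6) in library 60 and 47.4% (39.2 to 55.6) in library 63. Chick lateral plate shares rest on 8, 15 and 1 counts and have intervals as wide as 0 to 97.5%.

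In the emu the share was 30.9% (29.1 to 32.8) in splanchnopleure 6 and 25.9% (23.5 to 28.3) in the pool. Lateral plate 1, 23 and 8 had 7.41% (0.910 to 24.3), 12.7% (8.52 to 17.9) and 15.2% (10.9 to 20.4). Somatopleure 53 and 5, at 13.1% and 15.1%, were like lateral plate, while somatopleure 13, labelled HH10, had 32.9% (27.4 to 38.7). Differences in gene length and in how reads were counted enter these shares, so they are compared between tissues of a species and not between species.

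As a log2 ratio of MAB21L1 to MAB21L2, with 0.5 added to each count, chick splanchnopleure exceeded lateral plate by 2.02 (means 0.459 ± 0.721 and -1.56 ± 0.891, SD, n = 3 each). Emu splanchnopleure exceeded lateral plate by 1.52 (means -1.34 ± 0.253, n = 2, and -2.86 ± 0.451, n = 3). In both species these tissues did not overlap in the ratio. The chick lateral plate ratios rest on very few counts of MAB21L1 and MAB21L2: 3 and 5 in library 30, 2 and 13 in library 31, and 0 and 1 in library 32. The value of library 32 depends on the added 0.5, so the chick difference is imprecise. Somatopleure overlapped both other tissues in both species. The ratio is made from the values that chose the genes, so it too is a description.

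**Figure D3:**
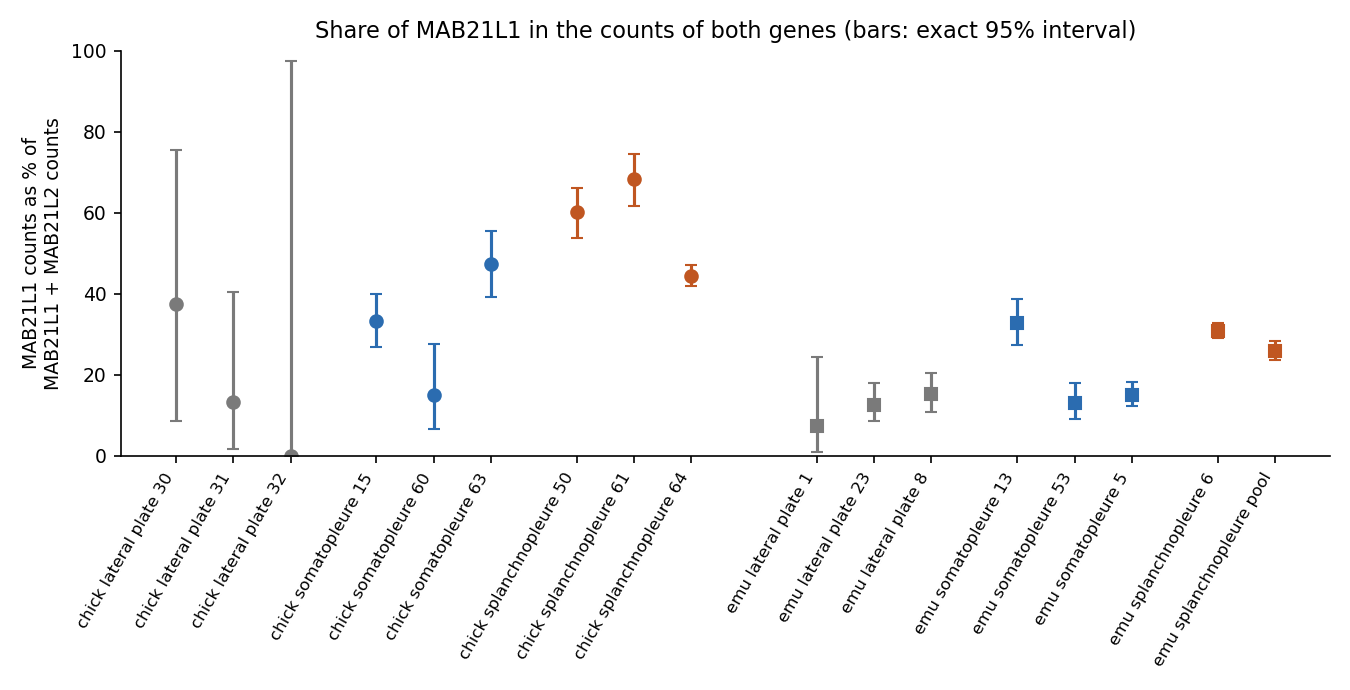
Share of MAB21L1 in the counts of MAB21L1 and MAB21L2 (percent, vertical axis) in each library (horizontal axis), coloured by tissue, chick as circles and emu as squares; bars are exact 95% intervals from counting alone. Splanchnopleure lies at 44.5 to 68.4% in the chick and 25.9 to 30.9% in the emu, above the lateral plate points in each species, and somatopleure overlaps both ranges in each species. The bars of chick lateral plate are wide, because it had few counts.

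The host genes were not used to choose MAB21L1 and MAB21L2, so their changes were tested. The RefSeq gene table for the chicken assembly GRCg7b also places MAB21L1 inside NBEA and MAB21L2 inside LRBA. NBEA encodes neurobeachin and LRBA a related anchor protein, both large BEACH domain proteins of membrane traffic. How reads in overlapping genes were counted, and whether strand was used, was stated in no label or header, so the counts of hosts and nested genes are uncertain where they overlap.

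LRBA rose in splanchnopleure against lateral plate in both species, but the emu call did not hold when any library compared was left out. Chick LRBA was at 70.7, 115 and 83.3 CPM in lateral plate 30, 31 and 32, at 105, 129 and 138 in somatopleure 15, 60 and 63, and at 174, 192 and 211 in splanchnopleure 50, 61 and 64. Splanchnopleure was above both other tissues without overlap, as it was for 20.4 percent of all genes against lateral plate and 19.4 percent against somatopleure. The log2 change was 1.10 ± 0.17 against lateral plate (edgeR adjusted p = 0.00223), and somatopleure was below splanchnopleure by 0.64 ± 0.17 (value -0.64, adjusted p = 0.0207), a call lost without somatopleure 15 (adjusted p = 0.0542) or splanchnopleure 64 (0.0808 adjusted). Somatopleure minus lateral plate was 0.47 ± 0.17, which did not pass (adjusted p = 0.112) except without lateral plate 31 (0.0171 adjusted).

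Emu LRBA was at 93.1, 76.6 and 88.7 CPM in lateral plate 1, 23 and 8, and at 123 and 133 CPM in splanchnopleure 6 and the pool. There was no overlap, as for 28.2 percent of all genes. Splanchnopleure minus lateral plate was 0.57 ± 0.17 (edgeR adjusted p = 0.0446), and the call was lost whichever of these 5 libraries was left out (adjusted p from 0.0854 to 0.152). Emu somatopleure 13, 53 and 5, at 103, 82.5 and 123 CPM, overlapped both other tissues, and somatopleure minus splanchnopleure did not pass (-0.31 ± 0.17, adjusted p = 0.252). The species difference of LRBA for splanchnopleure minus lateral plate, 0.54 ± 0.26, did not pass either (adjusted p = 0.193).

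NBEA was highest in splanchnopleure in the chick and lowest there in the emu. Chick NBEA was at 25.4, 37.2 and 34.2 CPM in lateral plate 30, 31 and 32, at 26.0, 43.4 and 45.3 in somatopleure 15, 60 and 63, and at 81.6, 66.3 and 94.1 in splanchnopleure 50, 61 and 64. Splanchnopleure rose by 1.33 ± 0.22 against lateral plate (edgeR adjusted p = 0.00384), and somatopleure minus splanchnopleure was -1.08 ± 0.22 (adjusted p = 0.00616). Every chick splanchnopleure library was above every library of the other tissues, beside 20.4 percent of all genes against lateral plate and 19.4 percent against somatopleure.

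Emu NBEA was at 10.2, 9.36 and 9.67 CPM in lateral plate 1, 23 and 8, at 16.8, 11.3 and 15.4 in somatopleure 13, 53 and 5, and at only 4.64 and 7.12 in splanchnopleure 6 and the pool. The 3 tissues did not overlap, and splanchnopleure, the tissue where MAB21L1 was highest, was lowest for NBEA. Of all genes, 7.94 percent had somatopleure above lateral plate without overlap. The share with splanchnopleure lowest is not given here, while 28.2 percent had it above lateral plate without overlap. Somatopleure minus splanchnopleure was 1.30 ± 0.30 (edgeR adjusted p = 0.0259), and this call was lost without lateral plate 1 and somatopleure 13 (1.18, adjusted p = 0.111). It was also lost without somatopleure 13 alone (adjusted p = 0.0694) and without splanchnopleure 6 (adjusted p = 0.192). Splanchnopleure minus lateral plate was -0.73 ± 0.30 and did not pass (adjusted p = 0.114). Emu NBEA rests on 36 and 55 counts in splanchnopleure.

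The species differed in NBEA by the test of the difference itself. The chick log2 fold change minus that of the emu was 2.06 ± 0.37 for splanchnopleure minus lateral plate (edgeR adjusted p = 0.00474) and -2.39 ± 0.37 for somatopleure minus splanchnopleure (adjusted p = 0.00169). Of all 9736 genes, 9.57 and 5.46 percent were called in these differences. Both NBEA calls held with every library of the tissues compared left out in turn, with the highest adjusted p at 0.0402 and 0.0205.

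**Figure D4:**
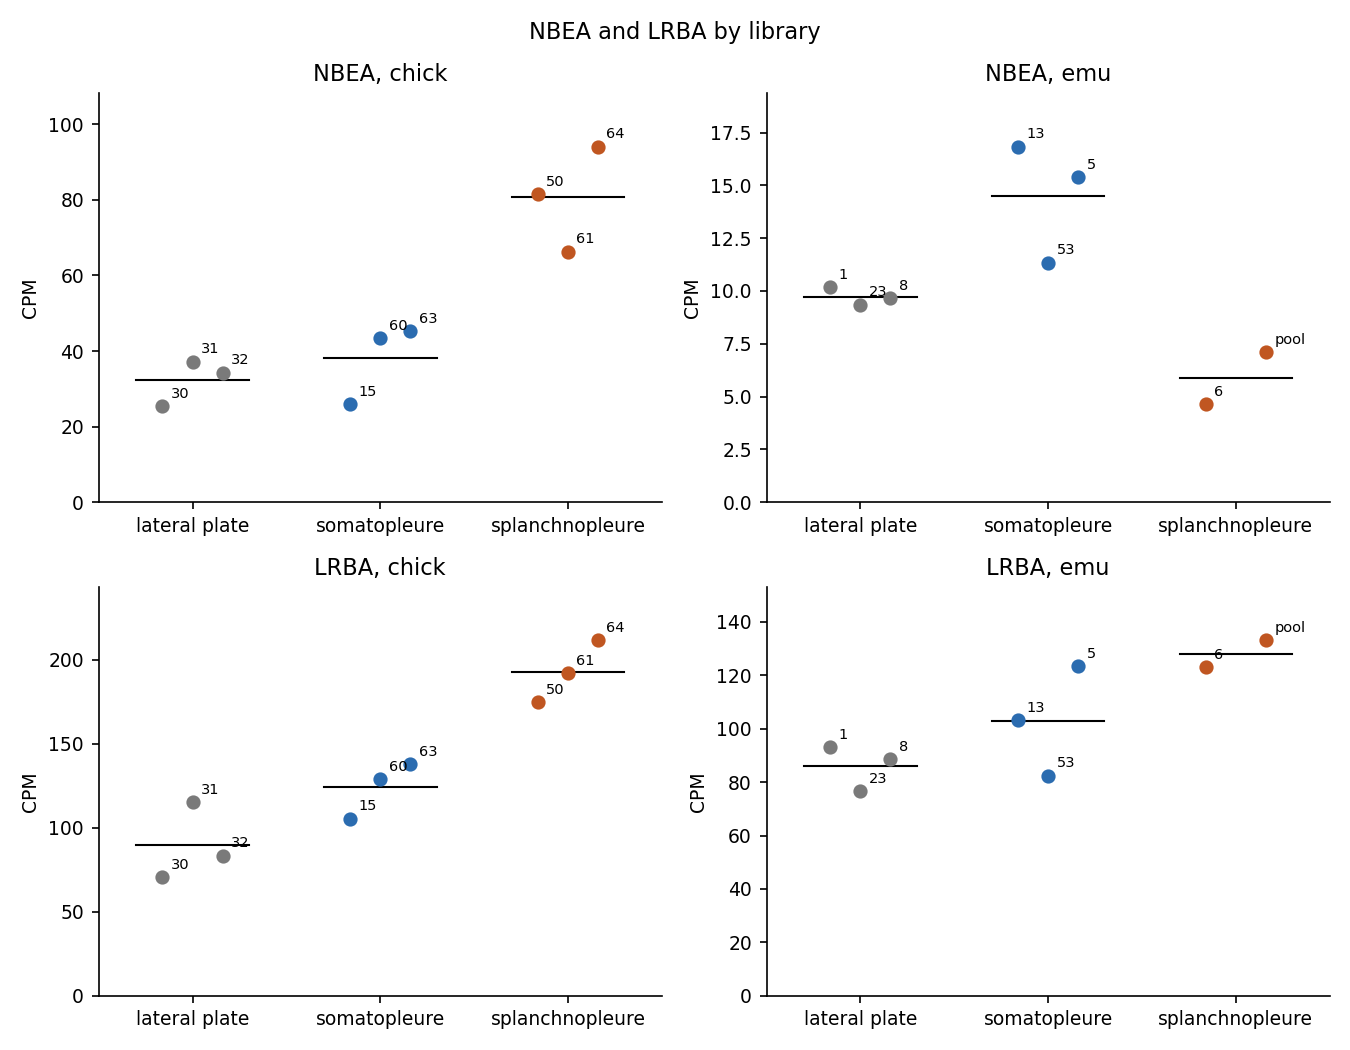
CPM of NBEA (top) and LRBA (bottom) in each chick (left) and emu (right) library; points are libraries with their numbers, lines are means, and each axis starts at 0 with its own scale. NBEA is highest in chick splanchnopleure, 66.3 to 94.1 CPM, and lowest in emu splanchnopleure, 4.64 and 7.12 CPM.

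The next protein-coding genes beside each host, 3 on each side in GRCg7b, were looked at as well; this set was chosen after the members' values were seen. Of the 12, 7 are in the early tables. On the NBEA side STARD13, a GTPase-activating protein, rose in splanchnopleure against lateral plate in both species, by 1.81 ± 0.38 in the chick (edgeR adjusted p = 0.0105) and by 3.03 ± 0.47 in the emu (adjusted p = 0.00510). KL, the FGF23 co-receptor klotho, rose by 2.21 ± 0.59 in the emu (adjusted p = 0.0303), from 1.29 ± 0.465 CPM in lateral plate (SD, n = 3) to 3.23 and 8.77 CPM in the splanchnopleure libraries. In the chick it had 8 and 30 counts in these tissues and did not pass the filter on low counts.

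RFC3, a subunit of the replication clamp loader, fell by 1.07 ± 0.20 in emu splanchnopleure (value -1.07, edgeR adjusted p = 0.00950). In the chick its change, -0.25 ± 0.14, did not pass (adjusted p = 0.258), and the species difference did (0.83 ± 0.24, adjusted p = 0.0408). On the LRBA side SH3D19, an SH3 domain adaptor, rose by 1.12 ± 0.25 in chick splanchnopleure (adjusted p = 0.0124) and had 0.59 ± 0.21 in the emu (adjusted p = 0.0728). DCLK2, RPS3A and SPG20 passed in neither species in this contrast. So 2 of 6 neighbours tested rose in the chick, beside 9.07 percent of all genes called higher and 7.78 percent called lower. In the emu 2 of 7 rose and 1 fell, beside 11.4 and 9.21 percent of all genes.

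The other genes with a Mab-21 type fold were counted in the same contrasts, and their counts stood near or below those of all genes. The tables hold 7 of them: MAB21L3, the DNA sensor cGAS (listed as MB21D1), MB21D2, the mitochondrial proteins SMCR7L and SMCR7, and the receptor-interacting proteins ITPRIP and ITPRIPL2. In the chick none of the 7 passed edgeR's test, beside 9.8 percent of all genes called in somatopleure minus lateral plate, 16.9 percent in splanchnopleure minus lateral plate and 19.1 percent between the layers. DESeq2 called none of them there either, and 1 of them, in the contrast between the layers, had an unadjusted p under 0.05, beside 3277 of all 10071 genes. That contrast gave 1 call without somatopleure 15. Their median log2 fold change in splanchnopleure minus lateral plate was -0.10, beside 0.01 for all genes. In the emu 5 passed the filter, and edgeR called none between the layers, beside 13.4 percent of all genes. DESeq2 called 2 there, and its share of all genes is not given here. At an unadjusted p under 0.05 were 3 of the 5, beside 3213 of all 10640 genes. Without somatopleure 5 edgeR called 2. In splanchnopleure against lateral plate, where 20.6 percent of all genes were called, 1 was: MB21D2 rose by 0.75 ± 0.21 (adjusted p = 0.0382), and the count of 1 was 0 when any library but the splanchnopleure pool was left out. MAB21L3, the member closest in name, had a mean of 0.962, 1.37 and 1.75 CPM in chick lateral plate, somatopleure and splanchnopleure, and at most 1 count in any emu tissue.

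Splanchnic mesoderm transcription factors rose with MAB21L1 and MAB21L2 in chick splanchnopleure. Of 8 tested, 5 rose against lateral plate and none fell, beside 9.07 and 7.78 percent of all genes, with a median log2 fold change of 1.55 beside 0.01 for all genes. TCF21, a factor of visceral and epicardial mesoderm, rose by 3.49 ± 0.46 (edgeR adjusted p = 0.00107), ISL1, a factor of heart progenitors, by 2.42 ± 0.53 (0.0122 adjusted) and HAND1, a factor of lateral mesoderm and heart, by 1.35 ± 0.37 (0.0293 adjusted). Against lateral plate, leaving out 1 library gave 2 to 5 called genes, 2 without lateral plate 30, and 3 when either lateral plate 32 or splanchnopleure 64 was dropped. Against somatopleure, 5 were higher in splanchnopleure, beside 19.1 percent of all genes called in either direction.

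In the emu 4 of 9 rose in splanchnopleure against lateral plate, beside 11.4 percent of all genes, among them TBX20 by 3.17 ± 0.87, HAND1 by 1.73 ± 0.45 and TCF21 by 1.49 ± 0.42 (edgeR adjusted p from 0.0285 to 0.0356). ISL1 went the other way, with a fall of 2.61 ± 0.62 (value -2.61, adjusted p = 0.0212), from 6.38 ± 2.50 CPM (SD, n = 3) to 1.03 ± 0.00262 (n = 2). The median was 1.49, beside less than 0.01 for all genes. The count of 5 was 0 without splanchnopleure 6, 1 without lateral plate 1 or 8, 3 without lateral plate 23, 2 without the pool, and 2 without lateral plate 1 and somatopleure 13. The summed level of the 11 listed factors was 881 to 1225 CPM in chick and 1135 to 1287 CPM in emu splanchnopleure, above every library of the other tissues. Lateral plate 1, lowest for both MAB21L genes, also had the lowest sum of the emu, 291 CPM beside 597 and 569 in lateral plate 23 and 8.

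Genes of the septum transversum and proepicardium, where mouse Mab21l2 is needed, were tested as a separate list. In the chick 4 of 10 rose in splanchnopleure against lateral plate and none fell, beside 9.07 and 7.78 percent of all genes. TBX18, a proepicardial factor, rose by 1.95 ± 0.53, BNC1 (basonuclin) by 1.76 ± 0.24, PODXL (podocalyxin) by 0.79 ± 0.20 and ALDH1A2, which makes retinoic acid, by 0.72 ± 0.21 (edgeR adjusted p from 0.00141 to 0.0364). TBX18 rests on few counts, 16 in all in chick lateral plate and 66 in splanchnopleure. Its emu means in these tissues were 0.714 and 0.582 CPM. Leaving out 1 library gave 1 to 3 calls, 1 without lateral plate 32, and 2 when lateral plate 30 or either of splanchnopleure 50 and 61 was dropped. In the emu 3 of 9 rose, RSPO3, a secreted enhancer of WNT signalling, by 3.06 ± 0.41, PODXL by 1.40 ± 0.36 and MSLN (mesothelin) by 0.52 ± 0.14, and the guidance factor SEMA3D fell by 3.01 ± 0.23 (value -3.01, adjusted p = 0.00167). Of all emu genes 11.4 percent rose and 9.21 percent fell, and the count of 4 was 2 without lateral plate 8. The list medians were 0.42 in the chick and 0.15 in the emu. Chick somatopleure also had 2 of 10 higher than lateral plate and 0 lower, beside 9.8 percent of all genes called in either direction. Between the chick layers 1 was higher and 3 lower in somatopleure, beside 19.1 percent. BNC1 had a mean of 185 CPM in both chick layers, beside 54.7 in lateral plate. The list summed to 1855 to 2327 CPM in chick somatopleure and 2255 to 2565 in splanchnopleure, beside 1100 to 1646 in lateral plate.

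The BMP pathway was listed because of the link of MAB21L2 to SMAD1. Its members went both ways. In chick splanchnopleure against lateral plate 4 of 27 genes rose and 2 fell, beside 16.9 percent of all genes called, with a median of -0.03 beside 0.01 for all genes. The ligand BMP2 fell by 1.12 ± 0.20 (value -1.12, edgeR adjusted p = 0.00486), the receptor BMPR1B rose by 1.12 ± 0.22 (adjusted p = 0.00719), and the targets HAND1 and GATA4 rose, GATA4 by 1.30 ± 0.36 (adjusted p = 0.0324); both are also on the splanchnic list. The count of 6 ran from 2 (without lateral plate 30) to 7 when 1 library was left out, and was 3 without lateral plate 32 or splanchnopleure 50 or 64. Chick somatopleure against lateral plate had 4 rises and 1 fall, beside 9.8 percent of all genes called, led by the target MSX2 (1.95 ± 0.32), the ligand BMP5 (1.53 ± 0.27) and the decoy receptor BAMBI (1.42 ± 0.24). That count of 5 was 3 without lateral plate 30, 31 or 32.

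Between the chick layers 5 of 27 BMP genes were higher and 4 lower in somatopleure, beside 19.1 percent of all genes called. MSX2 was at 2.59 ± 0.33 and BAMBI at 1.45 ± 0.24 on the somatopleure side, and GATA4 (-1.77 ± 0.37) and BMPR1B (-1.51 ± 0.22) on the splanchnopleure side. In the emu 3 of 29 rose and 3 fell in splanchnopleure against lateral plate, a share like the 20.6 percent of all genes called there. The ligand BMP7 fell by 2.60 ± 0.36 (value -2.60, edgeR adjusted p = 0.00362) and the target MSX1 by 1.78 ± 0.29 (value -1.78, adjusted p = 0.00591), while BMP5 rose by 1.83 ± 0.42 (adjusted p = 0.0187). Without emu splanchnopleure 6 the count of 6 was 1, and without lateral plate 1 and somatopleure 13 it was 3. SMAD1, the partner of MAB21L2 in Xenopus, was -0.71 ± 0.20 in this contrast (adjusted p = 0.0388) and 0.04 ± 0.10 in the chick (adjusted p = 0.820); it is named here for that link, after its value was seen.

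The genes most like the members were ranked by the root mean square difference of log2 CPM, each species centred on its own mean, over all 17 libraries and 9111 genes. Of all of them, MAB21L1 and MAB21L2 were closest to each other, at 0.869 (1.01 over the chick libraries, 0.676 over those of the emu). Both were chosen with their chick splanchnopleure level known, and these values enter the distance. Their nearness is thus partly built in and is a description. The median of all genes was 2.49 from MAB21L1 and 2.03 from MAB21L2, and most genes vary little, with a median spread of 0.251 against 2.48 for MAB21L1. For MAB21L1 the next were CACNB2, a calcium channel subunit, at 1.38, and RSPO1, a secreted enhancer of WNT signalling, at 1.42. They were followed by ADAMTS5, TAGLN, COL3A1, CDH6, SYNPO2, DCN and ITIH5, the last at 1.56, among them matrix genes (COL3A1, a collagen, DCN, decorin, and the protease ADAMTS5) and actin-binding genes (TAGLN and SYNPO2).

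For MAB21L2 the next were LOC421390 (1.09) and LOC100859120 (1.10), SYNPO2, CACNB2 and RSPO1 (1.13 to 1.16), then ADAMTS15, LOC100859090, LOC427449 and FLRT2 (from 1.17). Beyond each other, the members' lists of 10 shared 3 genes, CACNB2, RSPO1 and SYNPO2. These genes were picked for their likeness, so their changes are described without a test. In splanchnopleure minus lateral plate CACNB2 was at 3.94 in the chick and 2.65 in the emu, RSPO1 at 4.45 and 1.73, and SYNPO2 at 2.58 and 2.70.

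Several of these genes did not follow the tissue order of MAB21L1 and MAB21L2 in the chick. Chick somatopleure minus splanchnopleure was 0.34 for LOC421390, 0.67 for ADAMTS15 and -0.04 for FLRT2. The emu values were -0.10, -1.35 and -1.71, below 0 as for MAB21L1 and MAB21L2, with overlap of the layers for LOC421390 and ADAMTS15. CACNB2, which did follow the tissue order, went from 1.41 ± 0.455 CPM in chick lateral plate to 4.39 ± 3.13 in somatopleure and 21.7 ± 5.51 in splanchnopleure (SD, n = 3 each), and from 1.93 ± 1.20 to 3.62 ± 1.21 and 12.1 ± 1.43 in the emu (n = 3, 3 and 2). DCN and COL3A1 changed less in the chick than in the emu, 2.98 against 6.16 and 2.98 against 7.46 in splanchnopleure minus lateral plate, whereas MAB21L1 and MAB21L2 had the larger value in the chick. Their species differences, 2.54 ± 1.57 and 2.04 ± 1.45, were imprecise and rest on 5 and 19 counts in chick lateral plate. LOC421390 reached 111 ± 19.2 CPM in chick somatopleure and 88.0 ± 14.6 in splanchnopleure, and so lacked the step between the layers that MAB21L1 has.

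**Figure D5:**
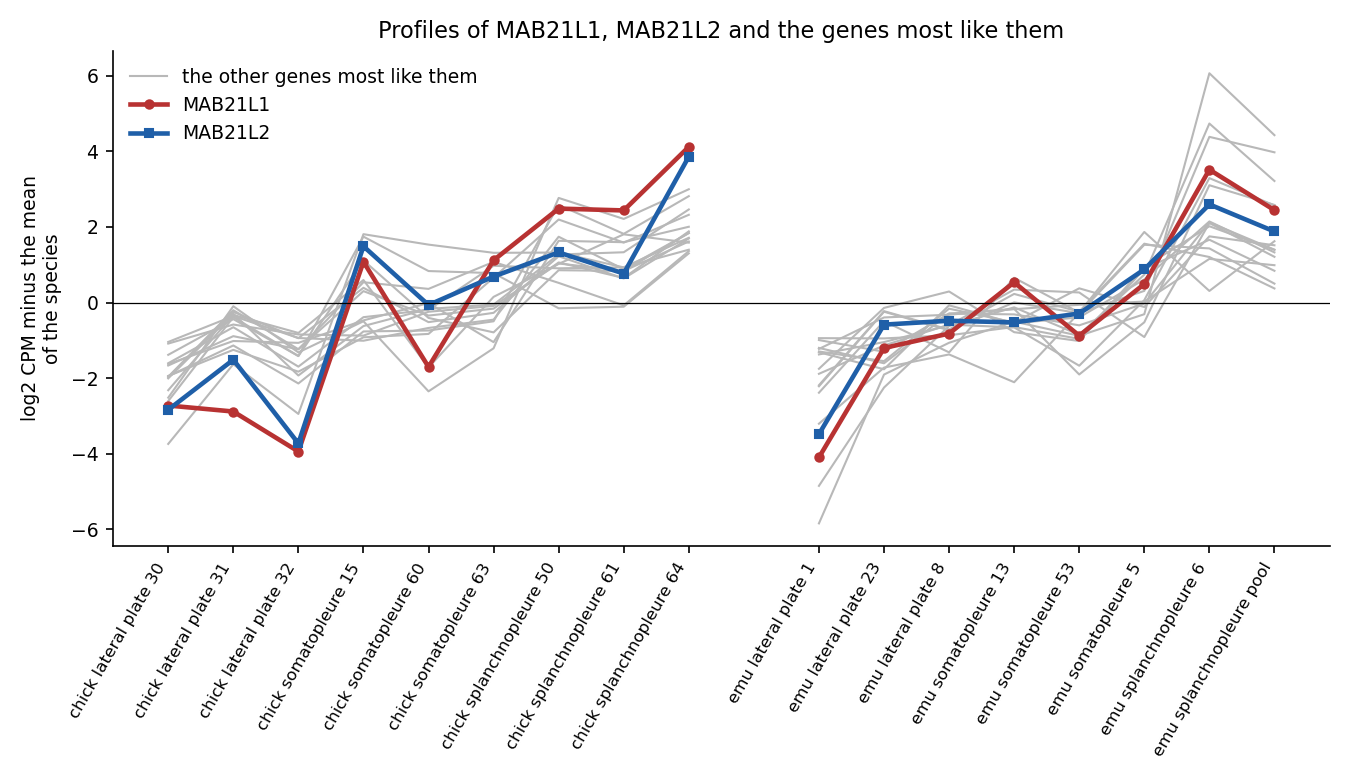
Log2 CPM minus the mean of the species (vertical axis) in all 17 early libraries (horizontal axis), for MAB21L1 (circles), MAB21L2 (squares) and the other genes most like them (grey lines), with a break between species. Both genes start low in chick lateral plate and in emu lateral plate 1, peak in chick splanchnopleure 64 and emu splanchnopleure 6, and part most in chick splanchnopleure 61 and somatopleure 60.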

How the data were processed

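Read counts per gene of 17 early libraries were used, whole numbers that were deposited without normalization in 2 tables, 1 for each species. Per the submitters' processing notes, the tools were STAR, featureCounts and DESeq and the assembly was galGal4, for both species. The emu reference and the strand setting are not given in the sources used here. The HH18 tables name genes by numbers and were not used here. Of 12338 symbols, 10037 are current and 367 older in the RefSeq table (GRCg7b), both members current; that table gave names and neighbours only.

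In R 4.3.3, edgeR 4.0.16 was fitted to each whole table (TMM, filterByExpr at minimum count 10 and total 15, two-sided quasi-likelihood test, p adjusted after Benjamini and Hochberg over the genes tested). A gene rose or fell if its adjusted p was under 0.05; SE is the fold change over the root of F. Species differences came from a joint fit on genes that passed in each table. DESeq2 1.42.0, total-count scaling, no filter, fits of the compared tissues alone and leaving out libraries were tried. The code was tested on simulated data. Labels do not say whether libraries of a tissue came from separate embryos, so p-values measure only how these samples spread, and that may be technical. No replicate pair agreed within sampling noise (chi-square over its degrees of freedom at least 3.95).

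The members, gene lists and tests were chosen with earlier results of these data known; the neighbouring genes were chosen after seeing the values. Named are both members, the hosts, up to 4 called genes with the largest change per list and contrast, and the 10 genes most like each member with a mean log2 CPM of at least 1 (prior count 2). Other genes named were chosen after their values were seen. Values of 1 listed gene that is in the counts are not reported here.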

Additional observations from a re-analysis of the deposited data

Results flagged for a closer look

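NBEA, the host gene of MAB21L1, differed between the species by the test of the difference itself. Chick log2 fold change minus emu log2 fold change was 2.06 for splanchnopleure minus lateral plate and -2.39 for somatopleure minus splanchnopleure. Chick splanchnopleure was above lateral plate in 3 of 3 libraries, as for 20.4 percent of all genes. Both emu splanchnopleure libraries were below all 3 lateral plate libraries, and the share of all genes with that order is not given here. The emu fall itself, -0.73 ± 0.30, did not pass (edgeR adjusted p = 0.114) and rests on 36 and 55 counts in splanchnopleure.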

How the results depend on the processing

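All 121 fold changes of MAB21L1 and MAB21L2 within a species under the alternatives kept their sign. These are refits of the same few libraries, and they include the chick contrasts with splanchnopleure by which the genes were chosen. The count is therefore a description and not separate support. Leaving out 1 library moved MAB21L2 in the chick most, to 3.75 to 6.40 for splanchnopleure minus lateral plate, -2.32 to -0.22 for somatopleure minus splanchnopleure and 3.02 to 4.57 for somatopleure minus lateral plate. The species differences without 1 library ran from 0.43 to 3.08 (MAB21L2, splanchnopleure minus lateral plate), and between the layers from -0.41 to 1.03 for MAB21L1 and from -0.22 to 1.88 for MAB21L2, so their sign there is not settled. The log2 ratio of MAB21L1 to MAB21L2 in chick somatopleure minus that in lateral plate ran from -0.16 to 0.98 without 1 library. LRBA in emu splanchnopleure minus lateral plate was 0.52 with total counts only (adjusted p = 0.0651), 0.63 without lateral plate 1 and somatopleure 13 (adjusted p = 0.115) and 0.49 to 0.63 without 1 library. NBEA in emu somatopleure minus splanchnopleure was 1.18 without lateral plate 1 and somatopleure 13 (adjusted p = 0.111) and 1.03 to 1.64 without 1 library. LRBA in the chick ran from -0.72 to -0.52 for somatopleure minus splanchnopleure (adjusted p up to 0.0808) and from 0.33 to 0.69 for somatopleure minus lateral plate, where it passed once (adjusted p = 0.0171).

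Counts of called genes depend on libraries: without chick lateral plate 30 the 1697 of chick splanchnopleure minus lateral plate were 816, without emu splanchnopleure 6 the 2196 of the emu were 353 and the 1424 of emu somatopleure minus splanchnopleure were 263. Without emu lateral plate 1 and somatopleure 13 they were 654 and 453, and the species differences gave 97 in place of 288 (somatopleure minus lateral plate) and 575 in place of 932. Of 13 endothelial genes 10 rose in emu splanchnopleure against lateral plate, 0 without splanchnopleure 6. The cause was not tested. Of the 10 genes most like MAB21L1 and MAB21L2, 9 and 10 were shared with a prior count of 0.5. Depth limits MAB21L1 in chick lateral plate, with 5 counts in all. No paired analysis was possible because the early groups compared share fewer than 2 replicate numbers.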
